A study of Mus musculus with 2 samples.

Results

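The natriuretic peptide system of the mouse heart was described through 9 genes chosen by name: the peptide genes Nppa, Nppb and Nppc, the receptor genes Npr1, Npr2 and Npr3, the processing proteases Corin and Furin, and the peptide-degrading protease Mme. All 9 were found among 55536 annotated genes. The rule named the genes and used no expression values, but the choice was made with earlier results of these data known. Total RNA was sequenced from hearts of male B6CASTF1/J mice, first-generation offspring of B6 and CAST parents, aged 36 days, with no treatment named in the labels. The samples form 1 group with 2 biological replicates, called hearts here, numbered apart in the biosample notes but carrying the same donor entry. There was therefore no contrast between conditions and no test, and the 2 values of each gene describe the spread between these samples, which may in part be technical. Libraries were stranded and reduced in ribosomal RNA, held synthetic spike-in RNA, and were made from 300 ng of RNA each.

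Of the natriuretic peptides, the atrial and B-type peptides are hormones released by heart muscle that lower blood pressure and blood volume. Each peptide of the family is cut from a precursor and carries a ring closed by a disulfide bond between a pair of cysteines. Nppa encodes atrial natriuretic peptide, made mostly in the atria, Nppb encodes the B-type peptide, and Nppc the C-type peptide, known mainly from vessel walls, bone and brain. The receptors encoded by Npr1 and Npr2 make cyclic GMP when a peptide binds, Npr1 mainly for the Nppa and Nppb peptides and Npr2 for the C-type peptide, while the Npr3 receptor takes peptide up and clears it.

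The coding stretches of the ring of Nppb and Nppc are shown because the ring is the part that members of this family share. Each stretch runs from the codon of the first ring cysteine to that of the last, both in capitals, 51 bases or 17 codons, read 5′ to 3′ on the coding strand from the GENCODE M21 transcripts on mm10.
Nppb (chr4:147986464-147986514, plus strand): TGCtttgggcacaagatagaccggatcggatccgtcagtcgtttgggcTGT
Nppc (chr1:86669667-86669717, minus strand): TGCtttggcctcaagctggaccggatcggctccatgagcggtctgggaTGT
In both genes the stretch lies in exon 2 of 3. Nppb and Nppc had the same base at 40 of 51 positions, and 13 of 17 codons encode the same residue. The pattern used to find the stretch required most of these shared residues, so their number was largely set in advance. The coding sequence went on for 6 codons after the ring in Nppb and ended with the ring in Nppc. These are reference sequences, and alleles of the CAST parent were not examined here.

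Each gene's level is given in TPM, a deposited unit that divides reads by transcript length and scales each library to the same total, and so allows levels of different genes to be compared. The authors deposited 2 quantifications of each library, the first from alignments to the transcriptome and the second directly from the reads, and values are from the first unless stated. The libraries held 41846508 expected counts in replicate 1 and 42481559 in replicate 2. As a check of the tissue label, all 6 cardiomyocyte markers (Myh6, Tnnt2, Tnni3, Actc1, Ryr2 and Pln) reached 1 TPM in both hearts, with summed levels of 21067 and 23117 TPM. The lung and liver lists summed to at most 0.05 and 0.30 TPM in either heart, with 2 of 4 lung markers at 0 counts in both. In marker lists of other cells, adipocyte markers summed to 75.5 TPM in replicate 1 and 8.28 in replicate 2, and erythroid markers to 20325 and 9335 TPM. Atrial markers summed to 663 and 506 TPM and ventricular markers to 10119 and 10900 TPM. In bulk RNA, fewer cells of a type and less RNA per cell cannot be told apart.

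The system was dominated by Nppa. Of the 9 genes, 8 reached 1 TPM in both hearts, against 49.7% of all 22015 nuclear protein-coding genes (10943 genes). Nppa was followed by Nppb, Corin, Furin, Npr2, Npr3, Npr1, Mme and Nppc, in that order, in both hearts and in both quantifications. No neighbours in this order had overlapping ranges in either quantification. The closest neighbours were Corin and Furin in the first quantification, 1.16-fold apart in mean TPM, and Npr2 and Npr3 in the second, 1.23-fold apart, where Corin and Furin were 1.43-fold apart.

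**Figure D1:**
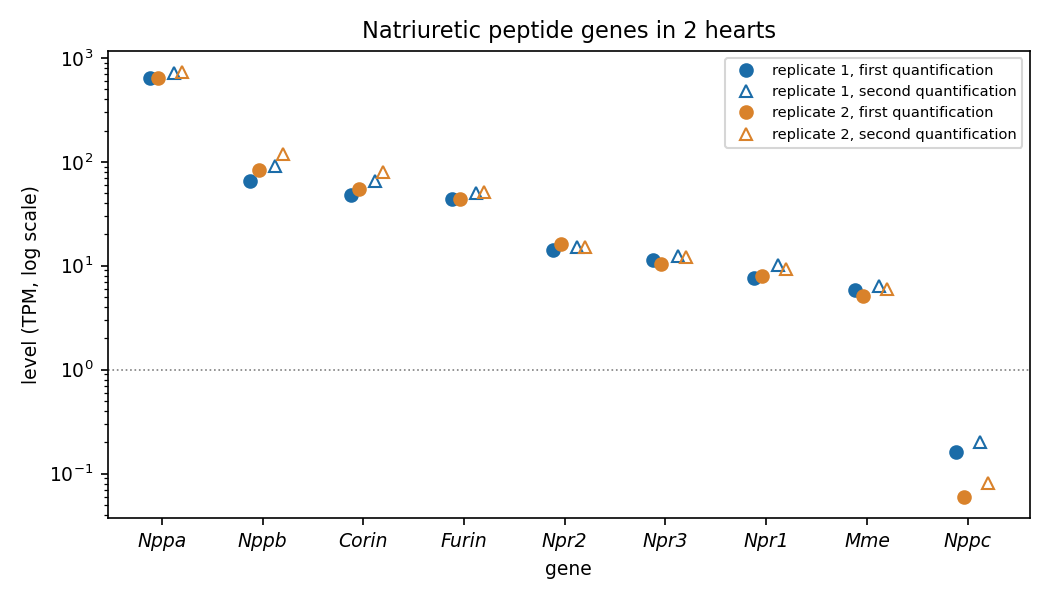
Level of each of the 9 genes in TPM (log axis) in replicate 1 (blue) and replicate 2 (orange), from the first quantification (filled circles) and the second (open triangles), with a dotted line at 1 TPM. Nppa lies at 636 and 643 TPM in the first quantification, and Nppc alone lies below the line, at 0.16 and 0.06 TPM.

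Among the ligands, Nppa (chr4:148000722-148002079, plus strand, 1 annotated transcript) had 16398 counts in replicate 1 and 16646 in replicate 2. Its level was 635.95 and 643.00 TPM, or 639.475 ± 4.99 TPM (SD, n = 2), and the hearts were within 1.02-fold of each other in scaled counts. By mean TPM Nppa ranked 66 of 22015 nuclear protein-coding genes. It stood just below the mitochondrial dehydrogenase gene Idh2 at 645.925 TPM and above the respiratory complex I gene Ndufc1 at 628 TPM. In replicate 2 alone Idh2 was below Nppa, at 632.53 TPM. In the second quantification Nppa stood higher, at 721 and 732 TPM, although fewer reads were assigned to it there, at 0.815 times the counts of the first.

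Nppb (chr4:147985788-147987205, plus strand, 1 transcript) had 1501 and 1932 counts, and its level was 65.38 and 83.82 TPM, or 74.6 ± 13.0 TPM. Replicate 2 was the higher heart, and also in the second quantification, at 119 against 90.8 TPM. Nppb ranked 732 among nuclear protein-coding genes. Nppa was 9.73 times as high as Nppb in replicate 1 and 7.67 times in replicate 2. In TPM summed over the 3 ligand genes, Nppa held 89.6% ± 1.55 and Nppb 10.4% ± 1.56. The ligand RNA in these hearts was thus for the most part that of the atrial peptide.

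Nppc (chr1:86666291-86670571, minus strand, 1 transcript) had 5 counts in replicate 1 and 2 in replicate 2. The exact Poisson 95% intervals of these counts are 1.62 to 11.7 and 0.242 to 7.22. Its level was 0.16 and 0.06 TPM, the lowest of the 9 genes. A count of 0 allows up to 3 counts, so the 2 counts of replicate 2 lie under that floor, and the C-type peptide gene was close to the limit of what this depth can show.

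The receptor genes were all detected at moderate levels, well below the main ligand. Npr2 (chr4:43631935-43651244, plus strand) had 1366 and 1568 counts, and a level of 14.28 and 16.32 TPM, or 15.3 ± 1.44 TPM. Npr3 (chr15:11839896-11907287, minus strand) had 1812 and 1628 counts, and a level of 11.33 and 10.48 TPM, or 10.9 ± 0.601 TPM. Npr1 (chr3:90450591-90465866, minus strand) had 875 and 910 counts, and a level of 7.63 and 7.88 TPM, or 7.755 ± 0.177 TPM. Over all annotated transcripts of each gene, the receptor for the C-type peptide was thus the most abundant receptor RNA. Its ligand gene was the least abundant ligand. The order of Npr2 and Npr3 was that of whole genes and reversed in replicate 1 for the main coding transcripts described below. Npr2 was higher in replicate 2, Npr3 was higher in replicate 1, and Npr1 differed little.

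In TPM summed over the 3 receptor genes, Npr2 held 45.0% ± 2.90, the clearance receptor Npr3 32.2% ± 2.73 and Npr1 22.8% ± 0.164. Npr2 held 43.0% in replicate 1 and 47.1% in replicate 2, and Npr3 34.1% and 30.2%. In the second quantification the hearts lay closer together, with Npr2 at 39.9% and 41.2% and Npr3 at 32.9% and 33.1%, so the opposite movement of these shares did not hold there. Between the 2 receptors that make cyclic GMP, Npr2 held 66.3% ± 1.60. Counted in reads without regard to length, Npr3 took the largest part, 42.2% of the receptor counts. Its leading transcript is also the longest, at 6892 nt, against 4066 nt for Npr1-201 and 3660 nt for Npr2-201.

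The proteases that act on the peptides were more abundant than the receptors, except Mme. Corin, the heart's membrane protease that cuts the Nppa precursor (chr5:72300025-72504473, minus strand), had 7286 and 8257 counts. Its level was 48.03 and 54.20 TPM, or 51.1 ± 4.36 TPM, with replicate 2 higher. Furin, the convertase known to cut the Nppb and Nppc precursors among many other proteins (chr7:80388585-80405436, minus strand), had 6165 and 6286 counts. Its level was 43.72 and 44.32 TPM, or 44.0 ± 0.424 TPM, nearly equal in the hearts. Mme encodes neprilysin, which degrades natriuretic and other small peptides (chr3:63241537-63386030, plus strand), and had 805 and 725 counts. Its level was 5.83 and 5.09 TPM, or 5.46 ± 0.523 TPM, with replicate 1 higher. Corin was 8.24 times as high as Mme in replicate 1 and 10.6 times in replicate 2.

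The hearts were compared through the log2 ratio of counts, replicate 2 over replicate 1, scaled by edgeR's TMM factors. The 95% interval in parentheses is exact (Clopper-Pearson) and covers counting error only. Genes with a mean of 50 counts or more were taken as measured, and a ratio of 2-fold or more was called different, which is a rule of size and not a test. None of the 8 measured genes (all but Nppc) was called, against 1.28% of all measured genes (161 of 12541). At 1.5-fold none was past the threshold either, against 4.27% of all measured genes. By direction, 1.00% of measured genes were called higher in replicate 1 and 0.279% higher in replicate 2. The median ratio was -0.0027 over the 8 genes and 0.00051 over all measured genes. With a background this low, a count of 0 among 8 genes does not set these genes apart from others.

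Nppb had the largest ratio of the measured genes of the system, 0.32 (0.22 to 0.42), and 14.2% of all measured genes lay at least as far from 0. The ratio was 0.15 (0.048 to 0.26) for Npr2 and 0.14 (0.090 to 0.18) for Corin. Below 0 were Npr3 at -0.20 (-0.30 to -0.10) and Mme at -0.20 (-0.34 to -0.049), distances from 0 that 27.7% and 28.3% of measured genes reached. These 5 genes kept their side of 0 under all 3 other scalings and in the second quantification. A scaling moves every ratio by about the same amount, at most 0.074 here, so the scalings could not carry these genes across 0. The second quantification rests on the same libraries. In its TPM the hearts were nearly equal for Npr2, at 14.98 and 15.11, and for Npr3, at 12.33 and 12.14. Nppb and Corin were higher in replicate 2 there, and Mme in replicate 1. The intervals of the remaining measured genes included 0, with Nppa at -0.023 (-0.055 to 0.0078), Furin at -0.017 (-0.068 to 0.034) and Npr1 at 0.012 (-0.12 to 0.15). Their side of 0 depended on the setting: Nppa was above 0 with spike-in totals (0.050), Furin with library and with spike-in totals, and Npr1 was below 0 in the second quantification (-0.0042). For Nppc the ratio was -1.03, with an interval from -4.76 to 1.24 that spans both directions.

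**Figure D2:**
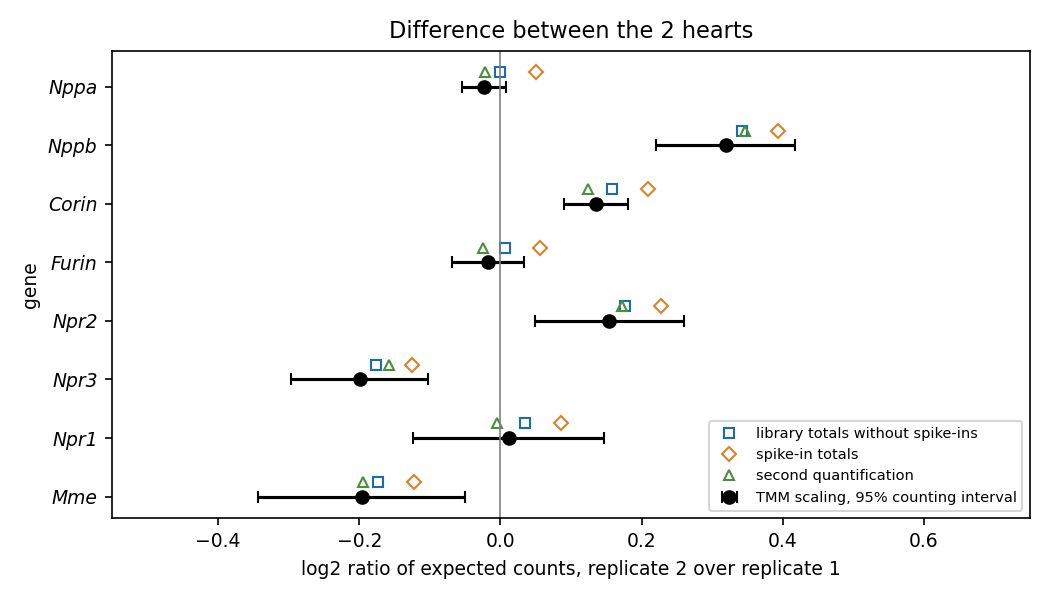
Log2 ratio of counts, replicate 2 over replicate 1, for the 8 measured genes; black points with bars give TMM-scaled values with 95% counting intervals, and open symbols the values with library totals, with spike-in totals and in the second quantification. Nppb lies farthest from 0 at 0.32, the intervals of Nppa, Furin and Npr1 cross 0, and no gene comes near a 2-fold difference.

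Cell type markers also differed between the hearts, and their values stand beside these ratios. All 5 ventricular markers had ratios above 0, with a median of 0.15, and so did all 6 cardiomyocyte markers, with a median of 0.0997. The part of these in the ratios of Nppb and Corin, genes of heart muscle, was not tested. Of 8 atrial markers 6 had ratios below 0, with a median of -0.26, and none was at 0 counts. The atrial light chain genes Myl7 and Myl4 stood at -0.50 and -0.44 and the atrial calcium pump regulator Sln at -0.50. The other atrial markers were Gja5 at -0.28, Stard10 at -0.24, Bmp10 at -0.054, Kcnj3 at 0.019 and Nr2f2 at 0.025. Nppa, itself most abundant in atria, stood at -0.023, near Bmp10, Kcnj3 and Nr2f2. Nppa was 2.49 times as high as Myl7 in TPM in replicate 1 and 3.47 times in replicate 2, and 2.08 and 2.77 times as high as Myl4. The part of the atrial share of the samples in the level of Nppa was not tested.

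For Npr3, known from endocardium and fat among other sites, endocardial markers had ratios below 0 in 4 of 5 cases, with a median of -0.25 and sums of 64.0 and 60.7 TPM. All 5 measured adipocyte markers were called higher in replicate 1, with ratios from -5.17 to -1.80, against -0.20 for Npr3. Fibroblast markers were below 0 in 4 of 6 cases, with a median of -0.13 and sums of 338 and 311 TPM, beside the ratio of -0.20 for Mme. The part of these cell types in the ratios of Npr3 and Mme was not tested. Erythroid markers, all 5 of them called higher in replicate 1, had ratios from -1.26 to -1.13, a shift that none of the measured genes of the system shared in size.

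Nppa, Nppb and Nppc have 1 annotated transcript each, and the other 6 genes have between 5 and 10. A transcript's share of its gene's TPM is an estimate, so the quantifications were set side by side. Among the 6 genes with several transcripts, the leading transcript was the same in both hearts and both quantifications for all but Mme. The ligand genes, with 1 transcript each, could not differ. Among the receptors, Npr2-201, a transcript of 3660 nt, held 65.6% and 66.0% of Npr2 in the first quantification and 74.1% and 87.2% in the second. Npr1-201 held 83.4% and 83.6% of Npr1 in the first and 67.6% and 76.7% in the second. The leading form of each of these receptor genes thus held most of the gene's TPM in all 4 estimates. Npr2-205 has 1837 nt of coding sequence, against 3141 nt for Npr2-201. It held 15.2% and 16.6% of Npr2 in the first and 0.00401% and 2.66% in the second. Npr2-203, with 526 nt of coding sequence, held 11.6% and 8.22% in the first and 17.6% and 6.43% in the second. The Npr2 level therefore includes RNA not annotated to encode the full receptor, and its rank among the receptors is that of the whole gene.

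Npr3 was split between a pair of transcripts. Npr3-201, of 6892 nt, held 54.5% and 51.3%, and Npr3-205, of 2437 nt, held 40.1% and 40.4%. The second quantification gave 56.2% and 48.4% to Npr3-201 and 36.2% and 36.6% to Npr3-205. Their coding lengths are nearly equal, 1608 and 1605 nt, with 8 exons each. This split was similar in both hearts and both quantifications. In replicate 1, Npr2-201 at 9.37 TPM lay below the sum of Npr3-201 at 6.18 and Npr3-205 at 4.54 TPM. In replicate 2 Npr2-201 lay above that sum, at 10.78 TPM against 5.37 and 4.23 TPM. The second quantification gave the same directions, with Npr2-201 at 11.10 TPM against 6.93 and 4.46 TPM in replicate 1. For these transcripts, Npr2 was thus above Npr3 in replicate 2 only.

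For the proteases the quantifications differed. Furin-203 held 97.4% and 98.8% of Furin in the first and 73.0% and 63.1% in the second, where Furin-201 took 18.5% and 24.7%. Furin-201, Furin-202 and Furin-203 share a coding length of 2379 nt. Corin-201 held 78.9% and 73.3% of Corin in the first and 45.3% and 38.2% in the second. Corin-205, a noncoding transcript of 467 nt, was at 0% and 0.46% in the first quantification and at 11.8% and 20.8% in the second. Transcripts without protein-coding annotation together took 4.91% and 4.92% of Corin TPM in the first and 15.1% and 23.8% in the second. The second quantification put Corin at 64.9 and 79.6 TPM, so part of its higher level there was assigned to transcripts that encode no corin.

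Mme was the gene whose leading transcript could not be settled. Mme-201 held 60.1% and 48.6% in the first quantification and 33.1% and 25.3% in the second. Mme-206 was at 0% and 10.9% in the first and led in the second at 34.7% and 33.6%. Both, and Mme-205 at 22.4% and 25.03% in the first, have a coding length of 2250 nt. The quantifications also differed over shorter forms: Mme-208, with 561 nt of coding sequence, was at 2.91% and 0% in the first and at 11.3% and 14.2% in the second, and Mme-203, with 535 nt, at 12.5% and 1.70% in the first and at 0% in the second. In Npr1, transcripts of other classes than protein-coding together held 16.6% and 16.4% in the first quantification and 32.4% and 23.3% in the second. They include Npr1-202, a transcript annotated for nonsense-mediated decay with a coding sequence of 152 nt, which held 5.27% and 5.83% in the first and 11.4% and 18.4% in the second. The Npr1 level therefore includes RNA not annotated to encode the full receptor.

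**Figure D3:**
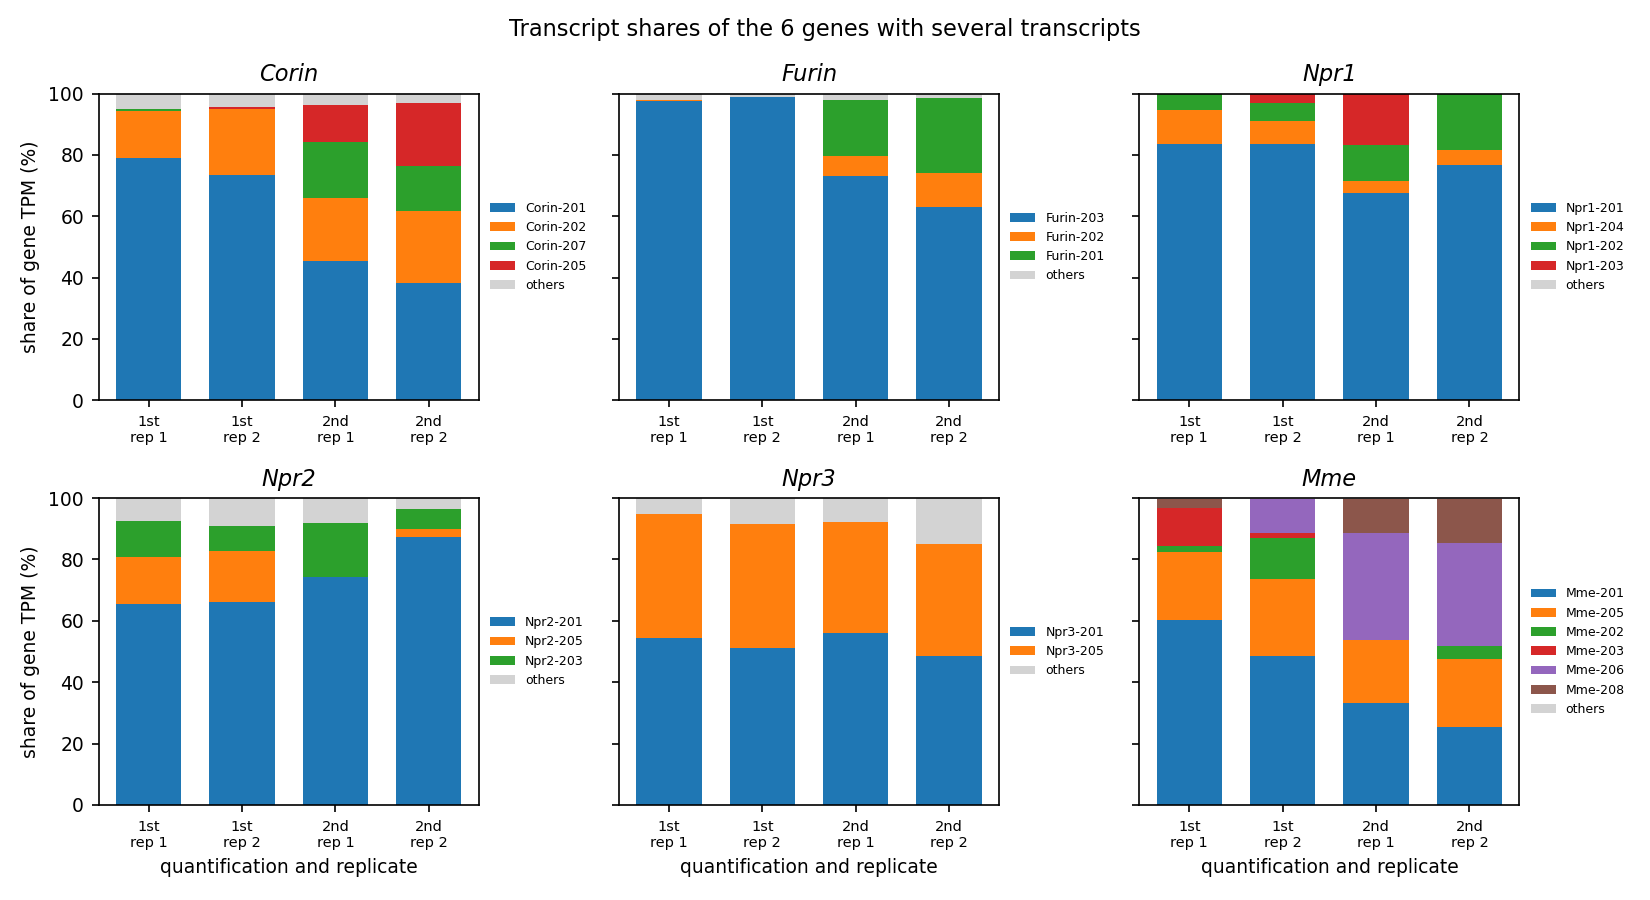
Share of each gene's TPM (percent) held by its transcripts in the 6 genes with several, for the first (1st) and second (2nd) quantification of replicates 1 and 2; coloured segments are transcripts holding at least 10% in any of the 4 estimates and grey is the rest. Npr3 keeps its split in all bars, while the leading transcripts Furin-203, Corin-201 and Mme-201 hold less in the second quantification than in the first.

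Nppb and Nppa lie next to each other on chromosome 4 on the same strand, 13516 nt apart, and are known to be activated together in heart development and stress. Among the 8 protein-coding genes reported from this region, 7 reached 1 TPM in both hearts, and Nppa was the most abundant. The mitochondrial fusion gene Mfn2 stood at 246 and 258 TPM, between Nppa and Nppb in level. The chloride transporter gene Clcn6, on the opposite strand and 2179 nt from Nppa, stood at 2.48 and 3.45 TPM. Nppa was thus 256 and 186 times as high as its nearest protein-coding neighbour on that side. Draxin, an axon guidance gene, stood at 0.06 and 0.02 TPM. None of the 7 measured genes was called, against 1.28% of all measured genes, and their median ratio was 0.052. Of the genes reported here, Nppa, Nppb and Mfn2 were the highest, with the others at 33.2 TPM or less.

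**Figure D4:**
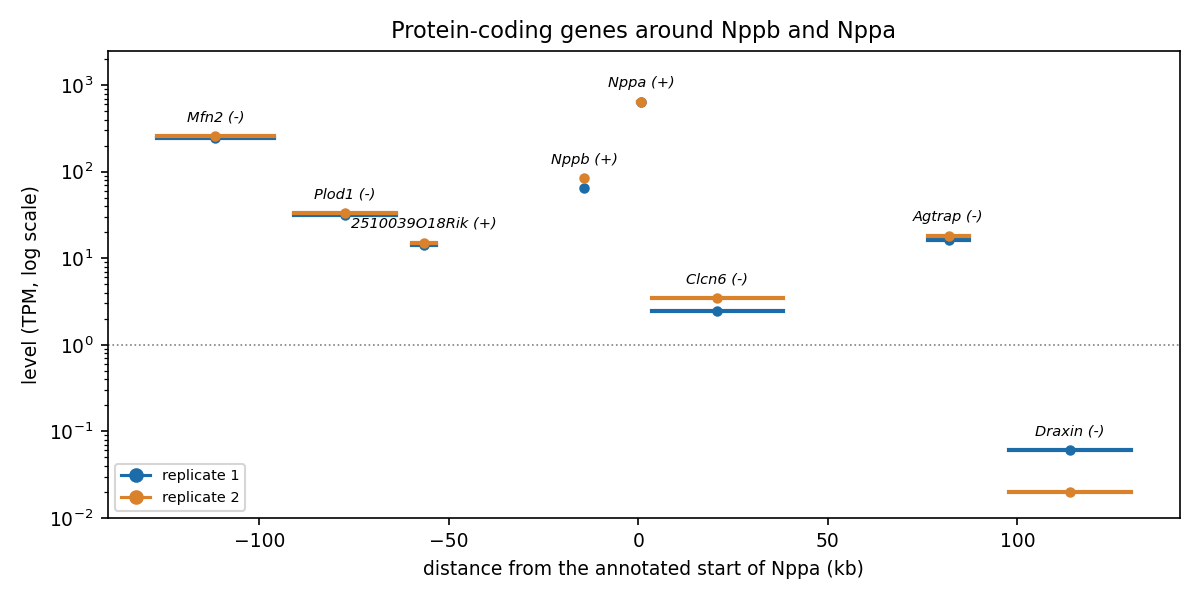
Level in TPM (log axis) of the 8 reported protein-coding genes around Nppb and Nppa against distance from the annotated start of Nppa in kb; bars span the genes, points mark their middle, and the sign in parentheses is the strand. Nppa lies at 636 and 643 TPM and Clcn6 beside it at 2.48 and 3.45 TPM.

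The antisense gene Gm13054 overlaps 989 nt of Nppa and had 4 and 9 counts, against 16398 and 16646 for Nppa. The other 9 annotated genes that overlap any of the 9 genes had at most 8 counts in either library. The libraries were stranded per the labels, and the sources used here do not say whether counting used the strand, so the assignment of reads in these overlaps is uncertain.

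The promoter of Nppa is shown because the gene's level stands out in its region. It is the RefSeq sequence (GRCm38.p6) of chr4:148000472-148000721, plus strand, the 250 bases before the annotated start. Capitals mark matches to short motifs known from heart factors, searched on both strands, and the matches do not overlap one another.
Nppa promoter: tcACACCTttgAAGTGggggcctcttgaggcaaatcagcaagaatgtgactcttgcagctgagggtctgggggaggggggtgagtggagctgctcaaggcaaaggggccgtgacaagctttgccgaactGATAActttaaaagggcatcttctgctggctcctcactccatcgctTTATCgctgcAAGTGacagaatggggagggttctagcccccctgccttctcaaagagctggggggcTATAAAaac
The motifs were GATAA (GATA factors), AAGTG (Nkx2-5), AGGTGT (T-box factors), CATTCC (TEAD factors), the CArG box (Srf) and TATAAA (the TATA box). AGGTGT matched on the opposite strand 248 to 243 bases before the start. AAGTG matched at 239 to 235 and at 65 to 61 bases, GATAA at 121 to 117 bases and, on the opposite strand, at 75 to 71 bases. TATAAA matched 9 to 4 bases before the start. No CATTCC or CArG box match lay in this window. Among 32851 promoters in the table, GATAA was found in 22.6%, AAGTG in 40.7%, AGGTGT in 11.8%, CATTCC in 12.6%, TATAAA in 12.4% and the CArG box in 1.47% of the same 250 bases. A match of these lengths is thus common and describes the sequence only.

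For Nppb the RefSeq start lies 112 bases downstream of the GENCODE start, so the later part of its window is annotated transcript in GENCODE. All matches in the window lay in that part, downstream of the GENCODE start. They were TATAAA 31 to 26 bases before the RefSeq start, GATAA at 94 to 90 and at 83 to 79 bases, and CATTCC on the opposite strand at 105 to 100 bases. They are therefore not matches upstream of the start that the GENCODE annotation gives.

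Factors known to act on Nppa or Nppb, or studied as such, reached 1 TPM in both hearts in all 23 cases reported here. Tead1 was the highest at 69.3 ± 0.778 TPM, followed by Mef2a at 47.9 ± 1.84 TPM and Mef2d at 43.05 ± 3.20 TPM. Srf stood at 31.8 ± 0.276 TPM and its coactivator Myocd at 28.1 ± 3.47 TPM. Of the T-box factors, Tbx20 and the activator Tbx5 stood at 24.9 ± 0.827 and 9.10 ± 0.976 TPM, and the repressors Tbx3 and Tbx2 at 3.74 ± 0.693 and 2.355 ± 0.106 TPM. The T-box activator was thus above both repressors in each heart. Hey2 and Irx4 also stand among the ventricular markers and Nr2f2 among the atrial ones. None of the 23 measured factors was called, against 1.28% of all measured genes. Their median ratio was 0.062, with ratios from -0.48 for Myocd to 0.38 for Hey2.

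Genes of peptide processing and clearance beside Corin, Furin and Mme were detected at 1 TPM in both hearts in 7 of 15 cases. Among the furin-like convertases, Furin held 62.4% ± 0.648 of summed TPM, Pcsk6, which activates corin, 26.9% ± 1.10 and Pcsk7 8.08% ± 0.0918. Pcsk6 stood at 18.2 and 19.8 TPM. The neuroendocrine convertases were near or at the limit: Pcsk1 had 12 and 7 counts, and Pcsk2 had 0 in both. The floor of 3 counts, scaled to the library total (CPM), is 0.0717 in replicate 1 and 0.0706 in replicate 2, and Pcsk2 can lie anywhere below it. Of other proteases, Ece1, the endothelin-converting enzyme, stood at 45.4 and 42.3 TPM and the insulin-degrading enzyme gene Ide at 25.3 and 26.3 TPM, both above Mme. Galnt1 and Galnt2, enzymes that add O-linked sugars to proteins such as the Nppb precursor, stood at 33.1 ± 0.665 and 13.0 ± 1.63 TPM. Ostn, whose product binds the clearance receptor, had 2 and 0 counts. None of the 8 measured genes of this list was called, against 1.28% of all measured genes, and their median ratio was -0.046.

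Downstream of the receptors, 19 of 28 listed cyclic GMP genes reached 1 TPM in both hearts. Of the other membrane guanylyl cyclases, Gucy2e was the highest at 0.47 and 0.55 TPM, and Gucy2c, Gucy2d, Gucy2f and Gucy2g had at most 2 counts in either library. Npr1 and Npr2 were thus the 2 membrane cyclase genes of the 7 examined that reached 1 TPM. The nitric oxide receptor subunits Gucy1a1 and Gucy1b1 stood at 6.41 ± 0.0990 and 5.345 ± 0.445 TPM, below Npr2 and Npr1. The cyclic GMP kinase gene Prkg1 stood at 4.89 and 4.67 TPM and Prkg2 at 0.10 TPM in both.

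Phosphodiesterases break down cyclic nucleotides, and the list leaves out the families specific for cyclic AMP and does not hold all others. Of those listed, Pde1c was the highest at 35.8 and 36.5 TPM. Pde2a, which cyclic GMP activates, stood at 23.4 and 27.4 TPM, though at a mean of 15.1 TPM in the second quantification. Pde3a, which cyclic GMP inhibits, stood at 20.4 and 18.9 TPM. The cyclic GMP-specific Pde9a and Pde5a were lower, at 2.095 ± 0.247 and 1.37 ± 0.113 TPM. Both of these listed enzymes specific for cyclic GMP were thus less abundant as RNA than Pde1c, Pde2a and Pde3a in each heart.

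Of the 20 measured genes of this pathway 1 was called, Rgs2, a regulator of G protein signalling that the cyclic GMP kinase can activate. It had 1075 counts in replicate 1 and 539 in replicate 2, levels of 21.2 and 9.88 TPM, and a ratio of -1.04 (-1.19 to -0.89). That is 1 of 20 beside the 1.28% of all measured genes, and the median of the list was -0.025.

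**Figure D5:**
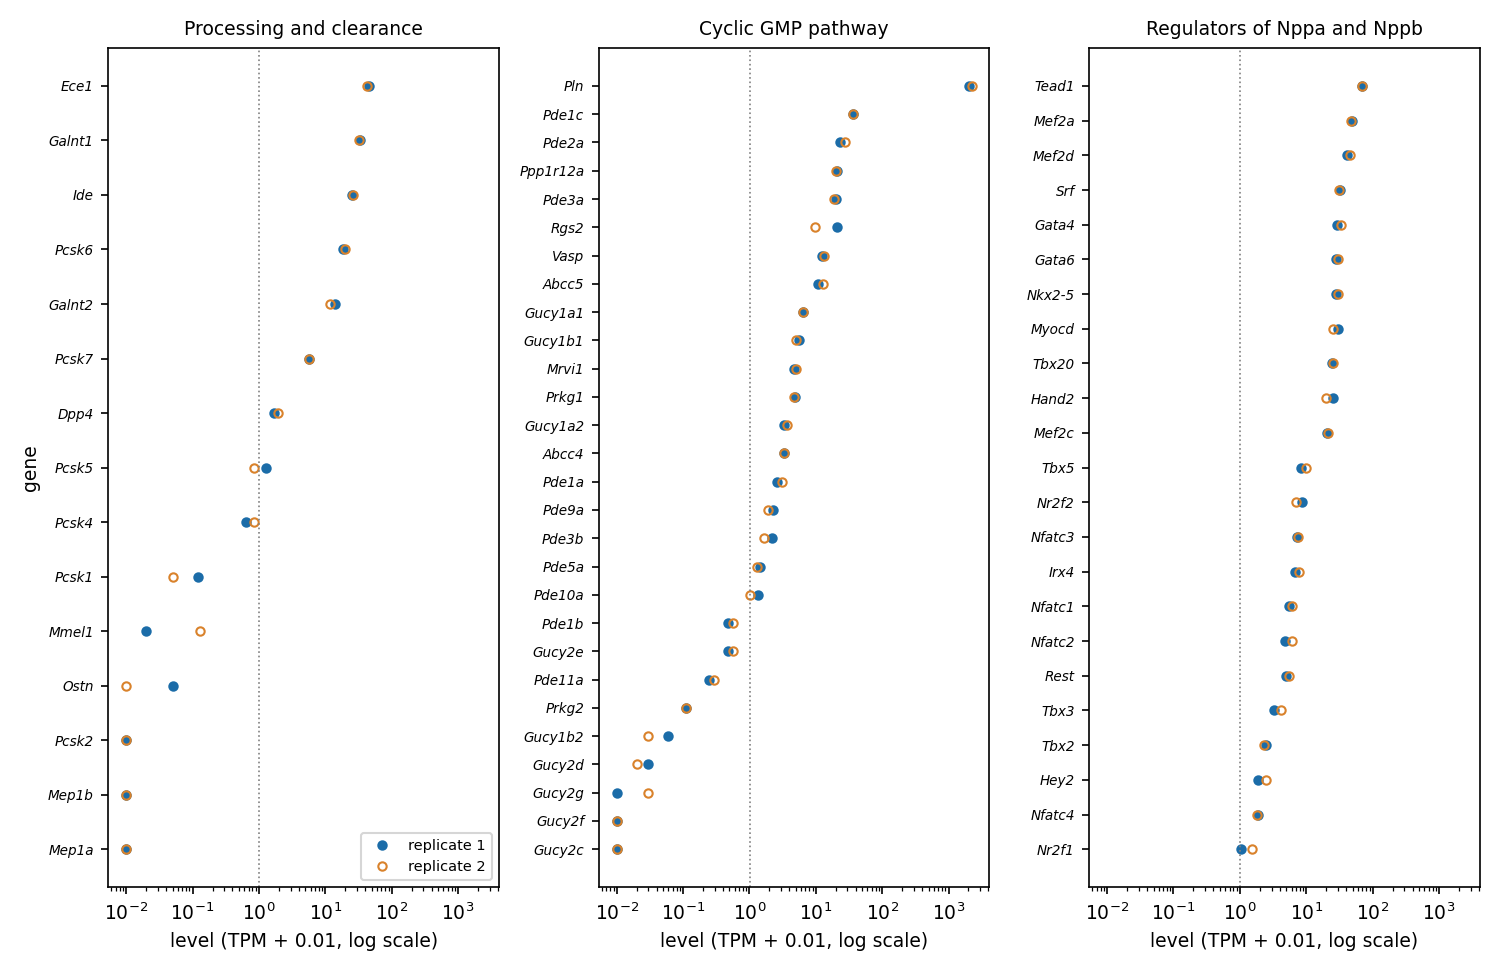
Level in TPM plus 0.01 (log axis) in replicate 1 (filled) and replicate 2 (open) for listed genes of peptide processing and clearance, the cyclic GMP pathway, and regulators of Nppa and Nppb, with a dotted line at 1 TPM. Values of the hearts lie close together for most genes, Rgs2 is at 21.2 and 9.88 TPM, and all 23 regulators lie at or above the line.

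Nppa and Nppb are also used as markers of the fetal and stress programme of heart muscle, together with 8 other listed genes. Ratios lay below 0 for 5 and above 0 for 4 of the 9 measured genes, among them the atrial markers Myl4 and Myl7, and 1 was called, against 1.28% of all measured genes. This was Acta1, the skeletal muscle actin, which was higher in replicate 1 at 493 against 242 TPM, with a ratio of -1.07. Ankrd1, a stress-responsive muscle gene, was higher in replicate 2 at 252 against 160 TPM, with a ratio of 0.61, and Xirp2, a structural gene of muscle, had a ratio of 0.26. Myh7, the slow and fetal myosin, had a ratio of 0.088. Nppb at 0.32 thus lay on the side of Ankrd1 and Xirp2 and opposite to Acta1, and Nppa lay near 0.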

How the data were processed

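Total RNA-seq of 2 heart samples in 1 group was used. The authors deposited expected counts, TPM and FPKM per gene and transcript, and the percent of gene TPM per transcript, made per the sample notes from transcriptome alignments on mm10 with GENCODE M21 (first quantification). The authors also deposited estimated counts and TPM per transcript, made from reads and an index (second), summed here per gene. Their columns are laid out as in RSEM and kallisto output. The sources used here give no tool name or version. FPKM was not used. In the first, effective length is transcript length minus 99 nt.

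Expected counts were rounded to whole numbers, and TMM factors were computed with edgeR 4.0.16 in R 4.3.3 without spike-ins and numbered tRNA entries. Ratios used a prior count of 1. DESeq2 1.42.0 size factors, library totals and spike-in totals were alternatives. Depth was 41846508 and 42481559 expected counts, and a floor of 3 counts equals 0.0717 and 0.0706 CPM. Without molecular identifiers, reads cannot be counted as molecules, so intervals and floors cover counting error only. The ratio and call rule were tested on simulated data.

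The ring stretch was found by a pattern of shared residues that was relaxed after the mouse Nppb sequence had been seen. Promoters came from a RefSeq table. Named are the 9 genes, their transcripts at 10% or more in any estimate, the genes next to Nppa in rank, and members of lists. Some of these transcripts appear only in the figure of transcript shares. Some listed genes and sequences are not reported here, and the list counts leave those genes out. The genes and lists were chosen with earlier results of these data known.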

Additional observations from a re-analysis of the deposited data

How the results depend on the processing

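No paired analysis was possible because the samples form 1 group. No gene of the system was called 2-fold different under the other scalings, count minimums, fold thresholds or the second quantification. Without a count filter 1 was called, Nppc, with 5 and 2 counts. The share of Nppa among the ligands was 87.4% in the second quantification. That of Npr1 among the receptors was 26.4% there and 21.9% by counts, and that of Furin among the convertases 60.7% and 65.6%. The cause was not tested. With each replicate alone, these shares ranged from 88.5% to 90.7%, from 22.7% to 23.0% and from 61.9% to 62.8%. Of the listed genes beside the 9, 61 of 80 reached 1 TPM in both hearts, 43 at a threshold of 5 TPM. Spike-in totals moved the median ratio of all measured genes to 0.074. Levels depend on what TPM is scaled over: over nuclear protein-coding genes alone, every one of the 9 was higher, Nppa at 1692 TPM, Nppb at 197 TPM and Npr1 at 20.5 TPM. Of the alternatives for shares and counts, 27 stayed within the spread, or within 1.5 times for counts, and 6 moved. Of those for the levels and ratios of single genes, 53 stayed and 19 moved, 9 of the latter by this rescaling. For levels and shares, the settings with 1 replicate alone stayed by construction, because each of 2 values lies within their SD of the mean. These settings are included in both counts of those that stayed and say nothing on stability. With 2 samples of 1 group, no difference between conditions could be tested, and depth limits Nppc.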
